A study of Mus musculus with 16 samples.

Results

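The LIM homeobox genes encode transcription factors that carry a pair of LIM zinc-finger domains beside the homeodomain. Of this family, 10 genes were examined, Lhx1, Lhx2, Lhx3, Lhx4, Lhx5, Lhx6, Lhx8, Lhx9, Lmx1a and Lmx1b, among 22367 protein-coding genes of the annotation. The peaks examined were those that overlapped one of these genes or lay within 5 kb of it, 22 of 4992 peaks for Jarid2 and 21 of 4502 peaks for Jarid2-K116me2. All 10 genes had peaks of both antibodies. In addition, the coverage of the 10 gene starts by broad peaks of H3K27me3 was measured in 12 libraries.

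Jarid2 is a subunit of the Polycomb complex PRC2, which places H3K27me3, a mark of silenced chromatin, and which also methylates Jarid2 itself on a lysine, K116. Jarid2 and its dimethylated form, Jarid2-K116me2, were profiled by ChIP-seq in E14, a mouse ESC line grown in serum with LIF, from 1 sample per antibody. H3K27me3 was profiled in 3 lines, each as undifferentiated ESC and as embryoid bodies (EB) made by the hanging drop method after 8 days without LIF, with 2 replicates per group. The lines were Jarid2 -/- cells (KO), the same KO cells rescued with a bacterial artificial chromosome (BAC) carrying Jarid2 (WT), and the KO cells rescued with a BAC carrying Jarid2K116A, in which this lysine is an alanine and cannot be methylated (K116A). The endogenous Jarid2 gene was thus disrupted in all 6 groups, and both rescues came from transposon insertion of the BAC into the genome. The number of clones behind each line is not given in the sources used here. EB hold cells of several lineages, so that a wider mark in more cells and a mark in a different mix of cells cannot be told apart.

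LIM homeobox factors bind AT-rich sites, work through the LIM-binding proteins Ldb1 and Ldb2, and set the identity of neurons, limb, kidney and pituitary cells. In vertebrates most of them come as pairs of close paralogs. Lhx1 and Lhx5 act in the head organizer, the kidney and the forebrain, Lhx2 and Lhx9 in the eye, cortex, limb and gonad, Lhx3 and Lhx4 in the pituitary and motor neurons, Lhx6 and Lhx8 in interneurons and cholinergic neurons of the ventral forebrain, and Lmx1a and Lmx1b in the roof plate and midbrain dopaminergic neurons. In ESC such lineage regulators are silent and are known targets of PRC2.

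The 200 bases upstream of the annotated gene start are shown for Lhx1 and Lhx9, which are described in detail for H3K27me3 and were chosen after those values were seen, and for Lhx2, the paralog of Lhx9. The middle 200 bases of the Jarid2 peak within the Lmx1a gene are shown as the peak farthest from a start. Sequences are those of the NCBIM37 (mm9) reference, written 5′ to 3′ on the strand of the gene, with each CG dinucleotide in capitals. They lie at chr11:84338924-84339123 on the minus strand (Lhx1), chr2:38194601-38194800 on the plus strand (Lhx2), chr1:140745154-140745353 on the minus strand (Lhx9) and chr1:169733157-169733356 on the plus strand (Lmx1a intron).
Lhx1: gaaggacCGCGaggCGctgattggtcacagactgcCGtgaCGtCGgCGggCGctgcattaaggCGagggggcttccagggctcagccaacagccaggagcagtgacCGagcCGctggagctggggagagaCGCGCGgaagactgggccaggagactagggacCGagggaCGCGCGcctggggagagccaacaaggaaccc
Lhx2: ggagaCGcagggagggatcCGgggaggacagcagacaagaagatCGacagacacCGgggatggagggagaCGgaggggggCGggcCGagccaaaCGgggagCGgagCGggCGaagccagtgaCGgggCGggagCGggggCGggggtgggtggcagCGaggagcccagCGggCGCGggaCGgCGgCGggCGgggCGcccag
Lhx9: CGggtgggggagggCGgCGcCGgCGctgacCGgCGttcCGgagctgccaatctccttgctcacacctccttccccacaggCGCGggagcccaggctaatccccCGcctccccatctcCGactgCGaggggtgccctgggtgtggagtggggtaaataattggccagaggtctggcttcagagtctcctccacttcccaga
Lmx1a intron: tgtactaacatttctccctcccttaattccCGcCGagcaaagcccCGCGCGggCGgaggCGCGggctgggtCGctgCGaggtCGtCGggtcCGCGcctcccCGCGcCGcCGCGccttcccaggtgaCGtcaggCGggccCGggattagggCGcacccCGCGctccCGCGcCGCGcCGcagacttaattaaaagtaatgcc

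CG dinucleotides are frequent in CpG islands, to which PRC2 is known to be recruited. These windows held 18 CG dinucleotides for Lhx1, 24 for Lhx2 and 13 for Lhx9. Over the 10 genes the median was 13 CG dinucleotides and a GC content of 67.2%, against 7 and 55.5% over the windows of all 22367 genes. Lhx8 had the lowest values, with 4 CG dinucleotides and a GC content of 43.0%. The middle of the Lmx1a intron peak held 30 CG dinucleotides, whereas the median over the middle 200 bases of all 4992 Jarid2 peaks was 12, and 4.55% of them held as many as 30. The letters TAATTA, a core of sites that homeodomains bind and the same on either strand, occurred in 0 of the 10 upstream windows and in 3.48% of those of all genes. They occurred in the Lmx1a intron window and in 2.0% of the middles of all Jarid2 peaks.

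Total Jarid2 covered the starts of all 10 genes. A peak was placed at the start when it came within 1 kb of an annotated TSS of the gene. By this rule 12 Jarid2 peaks in 10 genes lay at a start, 10 peaks in 4 genes lay in the gene body and 0 lay in the flank. Over all protein-coding genes, 15.4% had a Jarid2 peak at the start and 18.1% had one within 5 kb. The score that MACS gives a peak is its p-value on a scale of −10 times log10. It grows with read depth and stops for most strong peaks at a ceiling of 3100. Of the 12 start peaks, 11 had the score of 3100, and each of the 10 genes had at least 1 of them, compared to 3.2% of all genes. As these genes were chosen with results of these peak lists known, and each antibody has 1 sample, these shares are descriptions and no test was made.

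The start peaks were broad. Their widths ran from 2212 to 19126 bp with a median of 10832 bp, whereas the median over all Jarid2 peaks was 1877 bp. The widest was at Lmx1b (gene at chr2:33416485-33496031, minus strand), with 19126 bp from 6.10 kb upstream to 13.02 kb downstream of the gene start. The second widest, of 17085 bp, covered nearly all of Lhx5 (chr5:120881895-120891466, plus strand), and a peak of 16902 bp covered all of Lhx1 (chr11:84331479-84338923, minus strand). The Lhx1 peak overlapped the neighbouring genes Aatf and 1500016L03Rik, a lincRNA, or came within 1 kb of a TSS of theirs. Its signal may thus not be that of Lhx1 alone.

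At the remaining genes the start peaks took up a part of the gene. Lhx2 (chr2:38194801-38225253, plus strand) had 2 start peaks of 7850 and 16206 bp, 441 bases apart. The second also overlapped the processed transcript Gm13584 or came within 1 kb of its TSS. The second lay wholly inside the gene, from 5.01 to 21.2 kb downstream of the gene start, over an internal TSS. At Lhx9 (chr1:140721763-140745153, minus strand) a single peak of 14784 bp ran from the start into an intron. Lhx4 (chr1:157548827-157589157, minus strand) had a start peak of 13632 bp, and its paralog Lhx3 (chr2:26055732-26063769, minus strand) one of 7825 bp. The Lhx3 peak began 0.247 kb downstream of the annotated gene start and covered other TSSs of the gene. Lhx8 (chr3:153969260-153993615, minus strand) and Lmx1a (chr1:169619370-169778872, plus strand) had start peaks of 7969 and 8032 bp. Lhx6 (chr2:35937470-35960928, minus strand) had the narrowest, a peak of 5653 bp at the gene start and one of 2212 bp, with a score of 537, over an internal TSS. The latter was the only start peak under the ceiling.

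**Figure D1:**
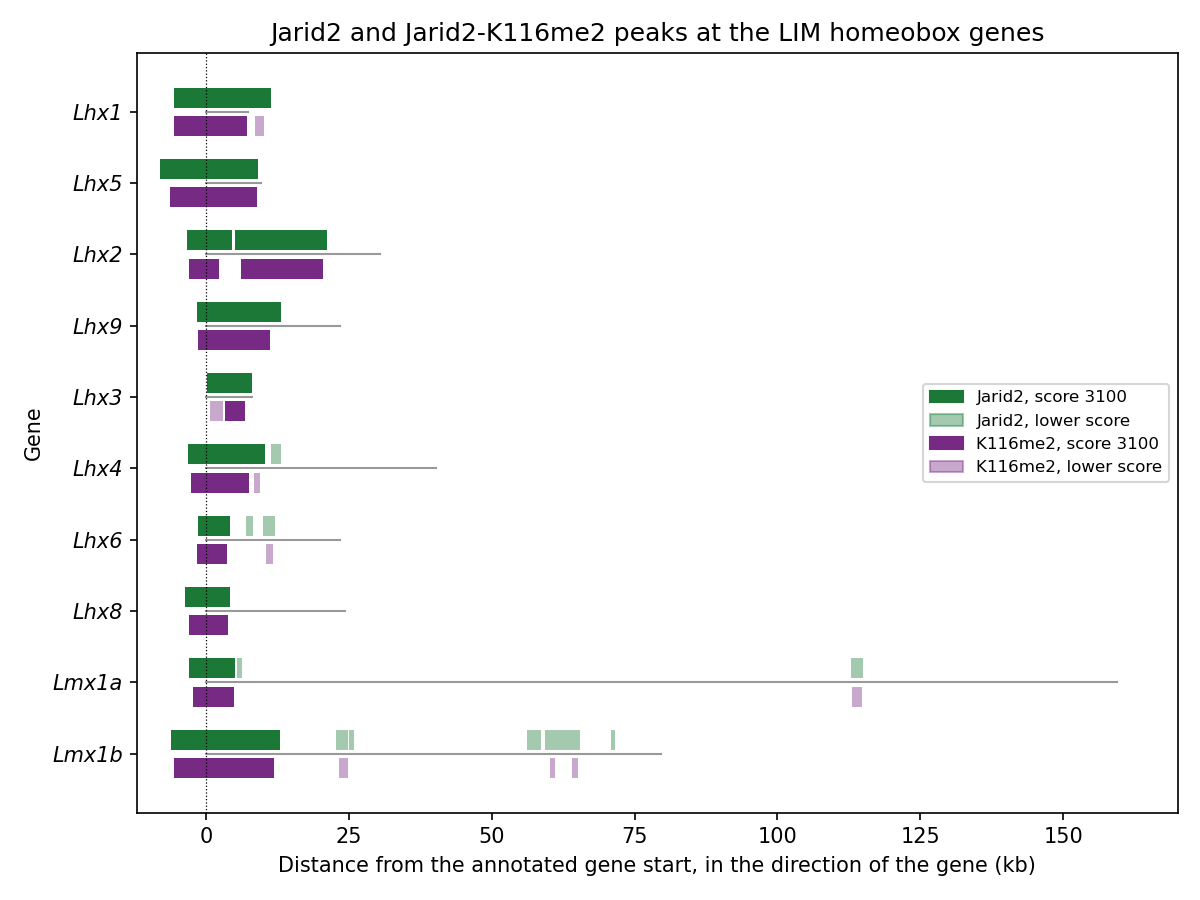
Peaks of Jarid2 (green, upper bar of each gene) and Jarid2-K116me2 (purple, lower bar) at the 10 genes, as distance from the annotated gene start in kb in the direction of the gene; grey lines are the genes, full colour marks a score of 3100 and pale colour any other score. Strong peaks sit at the starts of all 10 genes, and pale peaks lie within the genes of Lhx4, Lhx6, Lmx1a and Lmx1b.

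Jarid2-K116me2 was found at the same starts, in narrower and more divided peaks. It had 15 start peaks in 10 genes, 13 of them with a score of 3100. Over all genes, 13.7% had a Jarid2-K116me2 peak at the start, 16.0% had one within 5 kb and 3.76% had one at the start with a score of 3100 or more. All 21 Jarid2-K116me2 peaks overlapped a Jarid2 peak by at least 1 bp. In the other direction, 16 of 22 Jarid2 peaks overlapped a Jarid2-K116me2 peak, including 12 of 12 at starts and 4 of 10 in gene bodies, compared to 79.1% of all 4992 Jarid2 peaks. In each of these 16 regions the Jarid2 peak was wider than the summed width of the Jarid2-K116me2 peaks in it, with a median ratio of 1.19. Among all overlapping regions of the lists, 90.7% likewise had the wider peak for Jarid2, and their median ratio was 1.21. The Jarid2 peaks of Lhx1, Lhx3, Lhx4 and Lhx9 each held several Jarid2-K116me2 peaks. At Lhx9 there were 3 of them, separated by only 9 and 36 bases. At Lhx1 the additional one, with a score of 303, lay beyond the end of the gene, and was the only member in a flank. The lists were cut at different lowest scores, 62.1 for Jarid2 and 91.9 for Jarid2-K116me2. With 91.9 as the lowest score of both, there were 20 Jarid2 and 21 Jarid2-K116me2 peaks, and 16 of the 20 overlapped.

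Peaks placed in the gene body all had scores under the ceiling, and most of them were found at Lmx1b. Peaks wholly inside a gene but over an internal TSS count as start peaks by the rule, among them the Lhx2 Jarid2 peak with a score of 3100. The 10 Jarid2 body peaks had scores from 68.7 to 942 with a median of 235, against a median of 503 over all Jarid2 peaks, and all had their midpoint in an intron. Lmx1b held 6 of them, Lmx1a 2, and Lhx4 and Lhx6 1 each. Among the 6 that no Jarid2-K116me2 peak overlapped, the scores were 295 at Lhx4, 146.2 at Lhx6, 68.7 at Lmx1a, and 78.1, 419 and 94.6 at Lmx1b. Thus at these genes the strongest region of Jarid2 without the methylated form was an Lmx1b intron peak of 2569 bp at chr2:33437349-33439917.

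Where both antibodies had a peak under the ceiling the score of Jarid2 was the higher in 5 of 5 regions, compared to 46.6% of 3031 such regions in the whole list. Across whole lists, Jarid2-K116me2 peaks had the higher median score, 707 against 503. The largest gap was at another Lmx1b intron peak, chr2:33432043-33436623, with 942 for Jarid2 and 130 for Jarid2-K116me2. There the Jarid2 peak was 5.07 times as wide, 4581 bp against 903 bp. In the Lmx1a intron, at 113 kb from the gene start (chr1:169732246-169734268), the scores were 680 and 600. The other 2 such body regions of Lmx1b had 175 and 165, and 550 and 513. The last region was the internal start of Lhx6, with 537 and 377. Scores of the antibodies depend on the depth of each library, and their difference was not tested.

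Jarid2 peaks at these genes had a lower median GC content than the list as a whole. The start peaks were also wider, with a median of 10832 bp against 1877 bp, and no comparison at equal width was made. The GC content of the 12 start peaks ran from 48.7 to 56.1% with a median of 50.4%, and that of all Jarid2 peaks had a median of 56.3% with quartiles of 52.7 and 59.8%. The 10 body peaks ran from 44.7 to 59.6% with a median of 53.7%. The ratio of observed to expected CG dinucleotides had a median of 0.467 in the start peaks, 0.262 in the body peaks and 0.573 in all peaks. The CG-richest of the body peaks was the Lmx1a peak at 113 kb, with a ratio of 0.567, and the lowest was the Lmx1a peak beside the start peak, with 0.104.

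Other genes of the LIM pathway were taken from a list. Isl1 and Isl2, the LIM homeobox genes of motor neurons and heart, had start peaks with the score of 3100 for both antibodies. The LIM-only genes Lmo1, Lmo2, Lmo3 and Lmo4, which encode LIM domains without a homeodomain, had a Jarid2 start peak in 4 of 4 cases, only that of Lmo2 at 3100, and a Jarid2-K116me2 start peak in 3 of 4, without Lmo3. Of the 6 cofactors, Ldb1, Ldb2, Ssbp2, Ssbp3, Ssbp4 and Rlim, only Ssbp2 had a peak, at its start and under the ceiling for both antibodies. No peak was found at Pou5f1, Nanog, Zfp42 and Klf4, the pluripotency genes active in ESC.

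H3K27me3 in the KO, WT and K116A cells was measured as the percentage of the window from 5 kb upstream to 5 kb downstream of the gene start that was covered by broad peaks. The libraries differed in how much was called. They held from 1478 to 14125 broad peaks over 2.31 to 55.0 Mb, with the lowest by far in WT ESC replicate 1 (1478 peaks) and the highest in KO EB replicate 2. The peak files hold no read numbers. The study's supplement gives them for each library, and they were not used here. By them WT ESC replicate 1 had the most reads of the 6 ESC libraries, and both WT EB libraries had the fewest reads of all. In each of the 6 groups, replicate 1 had fewer peaks than replicate 2. Broad peaks of H3K27me3 cannot check the loss of Jarid2 itself in the KO. Among the pluripotency genes, Klf4 was covered in 0 of 6 ESC libraries and in 6 of 6 EB libraries, by 19.6 to 91.7%, whereas Nanog and Zfp42 were not covered in any. Pou5f1 was covered in 1 EB library, KO EB replicate 2, by 13.97%, and was not tested. Klf4 was 41.0 points higher in KO EB than in KO ESC (limma, adjusted p = 0.0221) and 87.9 points higher in K116A EB than in K116A ESC (adjusted p = 0.00620), and in WT the difference of 33.1 points did not pass (adjusted p = 0.560). Between K116A EB and WT EB, Klf4 was 54.8 points higher in K116A (adjusted p = 0.0496). For Klf4 neither the K116A change minus the WT change (limma, adjusted p = 0.426) nor the KO change minus the WT change (limma, adjusted p = 0.931) passed. No range over alternatives was made for Klf4.

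All 10 LIM homeobox genes carried H3K27me3 in 11 of 12 libraries. In WT ESC replicate 1 it was present at 7 of 10, with none at Lhx3, Lhx9 and Lmx1a. By comparison, 3.18% of all protein-coding genes had a broad peak in the window in that library and from 9.88 to 28.2% in the other 11. The median coverage over the 10 genes was 19.3% in WT ESC replicate 1, from 63.0 to 94.0% in the other 5 ESC libraries and from 89.4 to 100% in the EB libraries. Lhx5 was the most evenly covered, with 92.7% in WT ESC replicate 1 and 100% in the other 11 libraries. Lhx3 was covered on the downstream side of the start only, as was its Jarid2 peak, and did not exceed 48.9%.

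The Jarid2 peaks of E14 cells at these genes mostly overlapped H3K27me3 broad peaks of the KO, WT and K116A libraries. An overlap of at least 1 bp was counted, so a Jarid2 peak need not be covered along its length. Of the 12 start peaks, 8 overlapped a broad peak in all 12 libraries and the other 4, at Lhx3, Lhx9, Lmx1a and the internal start of Lhx6, in 11. Over all Jarid2 peaks, 12.9% overlapped one in all 12 libraries, and the median was 8 libraries. The start peaks were wider, with a median of 10832 bp against 1877 bp over all Jarid2 peaks, and no comparison at equal width was made. Of the 10 body peaks 1 overlapped in all 12, the Lmx1b intron peak with the score of 942, and the median was 9 libraries. The Lmx1a intron peak at 113 kb was the body peak with more ESC than EB libraries, 5 of 6 against 3 of 6. The lowest was an Lmx1b peak with a score of 78.1, with 1 ESC and 1 EB library.

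The bases covered by H3K27me3 broad peaks in each gene and 5 kb on either side were summed and compared with those of Jarid2. Jarid2 was profiled in E14 and H3K27me3 in the other lines, with a different peak caller, so these lengths are not on one scale. Lmx1b, a gene of 79.5 kb, had the highest median over libraries, 38.9 kb with a range of 9.13 to 62.1 kb. Its Jarid2 peaks covered 30.3 kb. Both values are sums over separate peaks and not the length of a single domain. At Lhx9 the mark covered fewer bases than Jarid2 in all 12 libraries, with a median of 5.53 kb and a highest value of 10.9 kb against 14.8 kb of Jarid2. Lhx1 was also covered less by H3K27me3 than by Jarid2 in each library, with a median of 15.8 kb against 16.4 kb. At Lhx2, Lhx4, Lhx5, Lhx6, Lhx8 and Lmx1b the mark covered more bases than Jarid2 in 9 of 12 libraries.

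**Figure D2:**
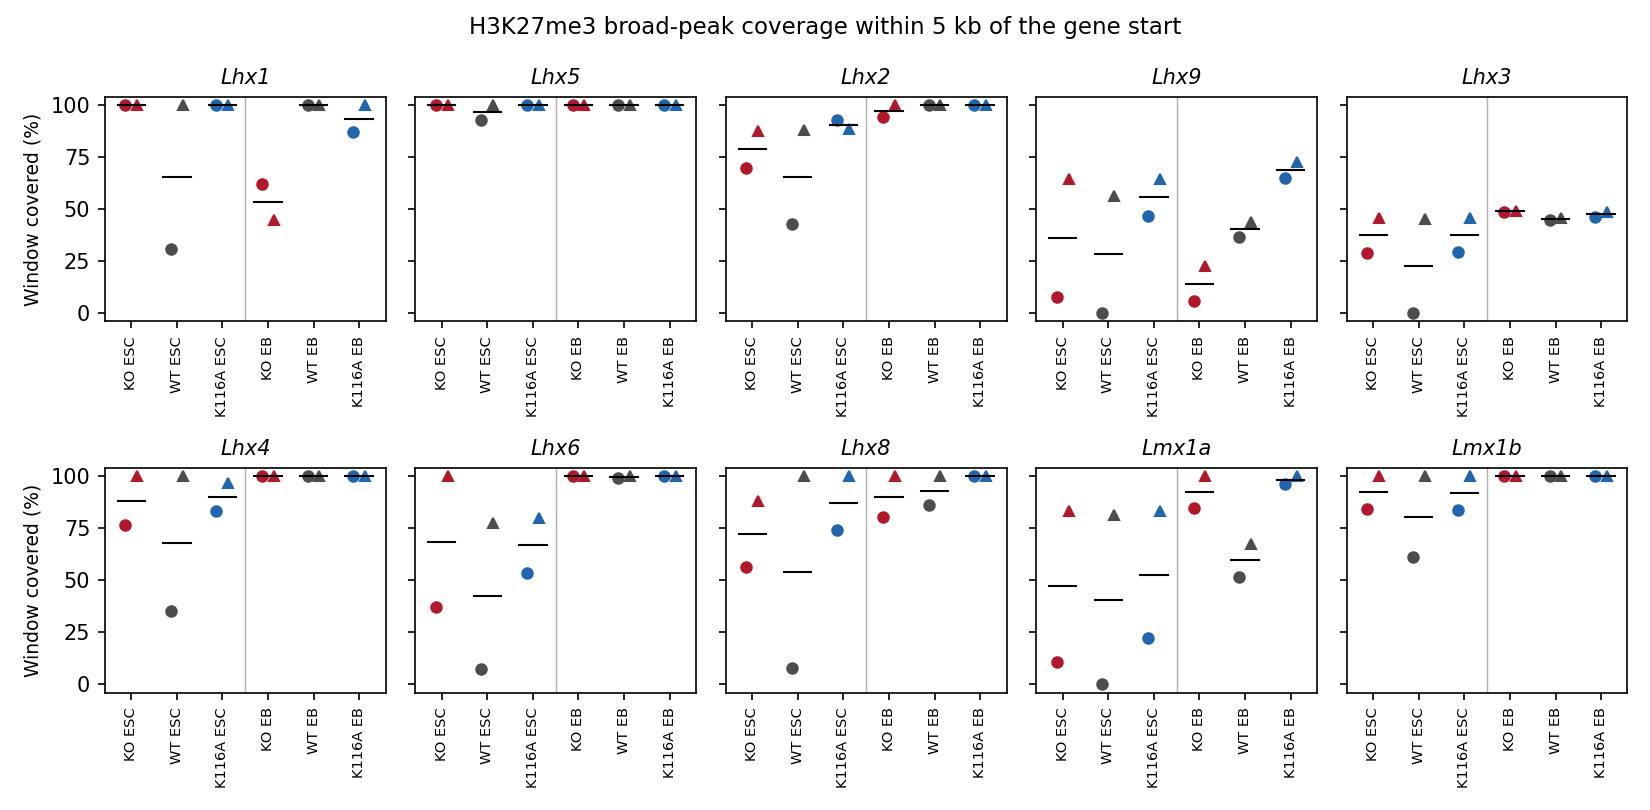
Percentage of the window within 5 kb of the gene start covered by H3K27me3 broad peaks in the 10 genes; red is KO, grey WT and blue K116A, circles are replicate 1, triangles replicate 2, lines the means of 2 replicates, with ESC to the left and EB to the right of the vertical line. Most genes reach 100% in EB, while Lhx1 in KO EB lies at 62.2 and 44.8% and Lhx9 stays at or under 72.7% in every library.

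Lhx1, required for the head organizer, had its lowest EB coverage in KO. Its window was covered by 100 and 100% in KO ESC, by 30.7 and 100% in WT ESC and by 100 and 100% in K116A ESC. In EB it was covered by 62.2 and 44.8% in KO, by 100 and 100% in WT and by 86.9 and 100% in K116A. Both KO EB libraries were thus below both libraries of WT EB and K116A EB, and apart from them only WT ESC replicate 1 was below 86.9%. On the weighted score described below, 4.16% of the 6747 genes tested had both KO EB libraries below both WT EB libraries, and 16.3% below both of K116A EB. For the covered percentage itself these shares were not computed. The gap was at the start itself. In WT ESC replicate 1 the peaks were also interrupted there, from 5.10 kb upstream to 1.93 kb downstream of the gene start, and the coverage within 2 kb of it was 1.70%, lower than in either KO EB library. In KO EB replicate 1 the broad peaks ended 1.09 kb upstream and resumed 2.08 kb downstream of the gene start, and in replicate 2 the limits were 1.47 and 2.11 kb. K116A EB replicate 1 had a smaller gap, from 0.927 kb upstream to 0.388 kb downstream, and WT EB had none. Within 2 kb of the start the coverage was 22.7 and 13.3% in KO EB, 100 and 100% in WT EB, and 67.2 and 100% in K116A EB.

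The difference at Lhx1 did not pass the test over all genes. The mean was 53.5% ± 12.3 (SD, n = 2) in KO EB and 100% ± 0 in KO ESC, a difference of -46.5 percentage points (SE 20.0, 95% confidence interval -92.0 to -1.02, limma, adjusted p = 0.136). KO EB differed from WT EB by the same -46.5 points (limma, adjusted p = 0.163). The change from ESC to EB in KO minus that in WT was -81.2 points (SE 28.2, interval -145 to -16.8, limma, adjusted p = 0.156). The fit shares 1 estimate of the spread per gene over the 6 groups, and the WT ESC libraries had 30.7 and 100%. Without WT ESC replicate 1 the SE of the KO EB and KO ESC difference fell to 6.31 points and its adjusted p was 0.00349, and without WT ESC replicate 2 they were 6.25 points and 0.00369. Without WT ESC replicate 1, the KO change minus the WT change was -46.5 points (limma, adjusted p = 0.0628). For the difference of KO EB and KO ESC, the sign was kept in 20 of 20 alternatives and the adjusted p ranged from 1.07e-05 to 0.525.

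Lhx9, which acts in gonad and limb, had its lowest EB values in KO and its highest in K116A. It was covered by 7.52 and 64.6% in KO ESC, 0 and 56.4% in WT ESC, and 46.7 and 64.4% in K116A ESC. In EB the values were 5.59 and 22.4% in KO, 36.4 and 43.8% in WT and 64.7 and 72.7% in K116A. The 3 lines did not overlap in EB, in the order KO, WT, K116A. On the weighted score described below, 4.16% of all tested genes had KO EB below WT EB without overlap, and 39.8% had K116A EB above WT EB. In ESC they overlapped. The difference between KO EB and WT EB was -26.1 points (SE 22.3, interval -77.0 to 24.7, limma, adjusted p = 0.558), and that between K116A EB and WT EB was 28.5 points (interval -22.3 to 79.4, limma, adjusted p = 0.860). None of these passed the test. Around the start, the broad peak of Lhx9 reached 5.36 and 5.90 kb downstream in K116A EB and 2.33 and 2.47 kb in WT EB. In KO EB it reached 1.36 kb downstream in replicate 2 and ended upstream of the start in replicate 1. Its paralog Lhx2 behaved otherwise, with 94.1 and 100% in KO EB and 100% in the WT and K116A EB libraries.

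**Figure D3:**
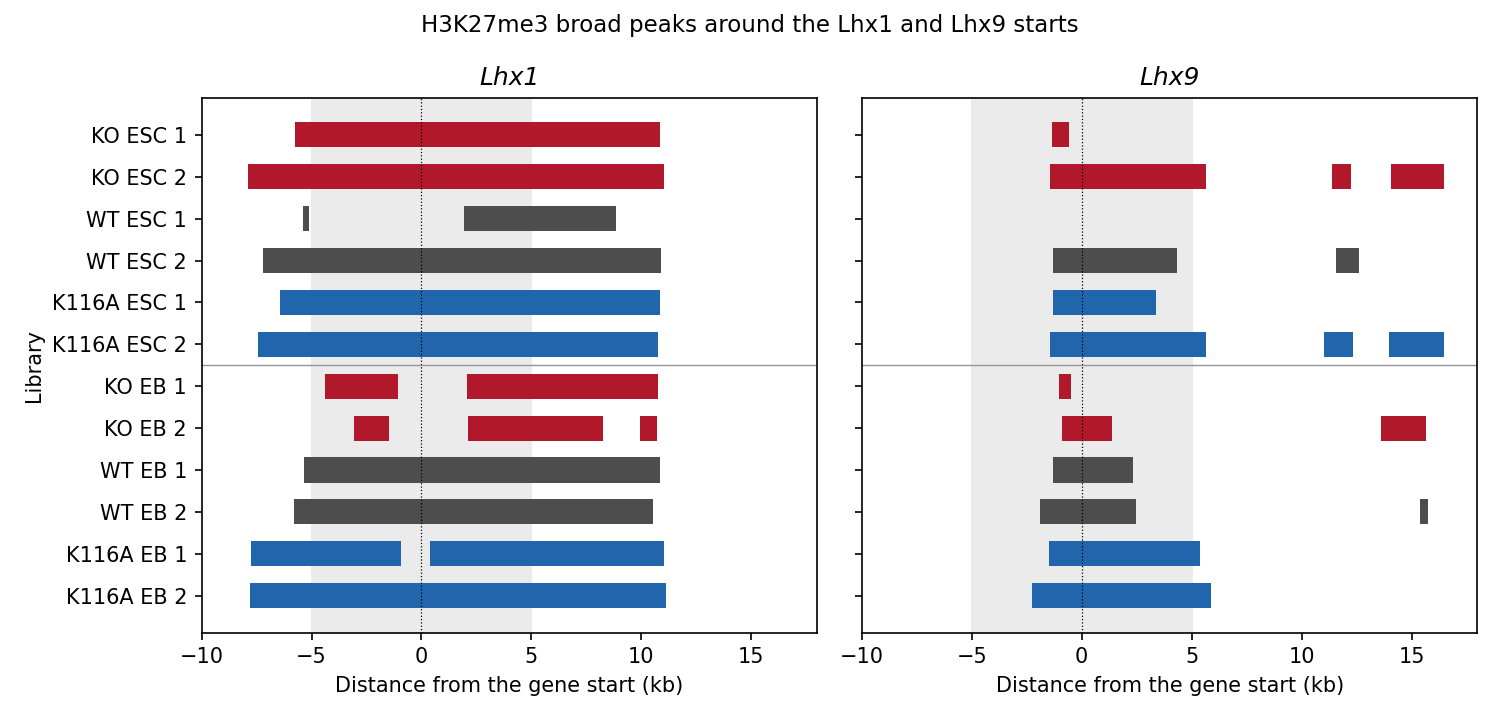
H3K27me3 broad peaks around the starts of Lhx1 and Lhx9 in each of 12 libraries, as distance from the gene start in kb in the direction of the gene; red is KO, grey WT, blue K116A, and the shaded band is the window within 5 kb that was measured. The peak over the Lhx1 start is interrupted in both KO EB libraries, in K116A EB replicate 1 and in WT ESC replicate 1, and the Lhx9 peak is longest downstream in K116A EB among the EB libraries.

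Lmx1a, a regulator of midbrain dopaminergic neurons, went the other way in KO EB. Its coverage was 84.6 and 100% in KO EB and 96.0 and 100% in K116A EB, above the 51.7 and 67.2% in WT EB. In ESC it was 10.6 and 83.5% in KO, 0 and 81.1% in WT and 22.2 and 83.2% in K116A, so that replicate 1 was low in all 3 lines. KO EB was 45.3 points above KO ESC (SE 32.2, interval -28.2 to 119, limma, adjusted p = 0.343) and 32.9 points above WT EB (interval -40.6 to 106, limma, adjusted p = 0.638). Both KO EB libraries lay above both WT EB libraries, but neither difference passed the test, whose estimate of the spread also holds the ESC libraries. This direction was common, as 59.2% of the 6747 genes tested had it without overlap on the weighted score described below. Lmx1b, its paralog, was covered by 100% in all EB libraries and by 61.0% or more in all ESC libraries.

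Lhx4, Lhx6 and Lhx8 reached full or nearly full coverage in EB of every line. Lhx4 was at 100% in all 6 EB libraries, after 35.4 to 100% in ESC. Lhx6, a regulator of cortical interneurons, was at 99.2% or more in EB, after 7.51 to 100% in ESC. Lhx8 was at 80.1% or more in EB and at 7.93 to 100% in ESC, where the lowest value of each gene was that of WT ESC replicate 1. A window covered by 100% cannot show a further gain, and for these genes this measure was at or near its limit in EB.

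Over the 9 comparisons, 0 of the 10 genes passed the threshold of an adjusted p under 0.05 (limma, adjusted over 6747 genes with a broad peak in at least 2 of 12 libraries, which all 10 genes were among). The share of all tested genes that passed was 24.2% between KO EB and KO ESC, 18.6% between KO EB and WT EB, 7.13% for the KO change minus the WT change, 2.56% between K116A EB and K116A ESC, 1.36% between K116A EB and WT EB, 0.0593% for the K116A change minus the WT change, 0.0148% between K116A ESC and WT ESC, and 0% between WT EB and WT ESC and between KO ESC and WT ESC. At an unadjusted p under 0.05, limma gave 386 genes between WT EB and WT ESC and 18 between KO ESC and WT ESC. Among the 10 genes, Lhx1 had an unadjusted p under 0.05 in the 3 comparisons with KO EB and Lhx2 in that of WT EB with WT ESC, where the difference was 34.7 points (SE 15.1, interval 0.159 to 69.1, limma, adjusted p = 0.866).

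The median difference over the 10 genes, beside that over the 6747 genes, was 11.7 and 10.5 points between KO EB and KO ESC, 27.5 and 1.68 between WT EB and WT ESC, and 9.94 and 4.48 between K116A EB and K116A ESC. In ESC it was 14.05 and 4.01 points between KO and WT and 23.2 and 0.690 between K116A and WT. In EB it was 0 and 8.92 points between KO and WT and 0.205 and 2.72 between K116A and WT. In WT EB the means of Lhx1, Lhx2, Lhx4, Lhx5 and Lmx1b were at 100% and that of Lhx6 at 99.6%. Little or no gain over WT EB could thus show at these genes, and the EB medians over the 10 genes are bounded by this limit. Lhx4, Lhx5 and Lmx1b were at 100% in every EB group. The WT ESC mean holds replicate 1, in which the median over the 10 genes was 19.3%. For the change from ESC to EB minus that of WT, the medians were -18.4 and 4.02 points in KO and -17.5 and 0 in K116A.

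Most genes that passed with KO EB were higher there, 1624 higher and 12 lower than in KO ESC, and 1238 higher and 16 lower than in WT EB. After centring each library on its median over 642 genes with a broad peak in all 12 libraries, these counts were 307 higher and 241 lower, and 157 higher and 68 lower. With this centring, 3 of the 10 genes passed between KO EB and KO ESC. Lhx1 was lower by 61.4 points (limma, adjusted p = 1.07e-05) and Lhx9 lower by 37.0 points (adjusted p = 0.00857, range over alternatives 0.00857 to 1), and Lmx1a was higher by 30.4 points (adjusted p = 0.0382, range 0.0382 to 0.930). Between KO EB and WT EB, 2 passed, with Lhx1 lower by 55.1 points (adjusted p = 0.000335, range over alternatives 0.000335 to 0.631) and Lhx9 lower by 34.7 points (adjusted p = 0.0327, range 0.0327 to 1). The centring shifts each library by its median less the mean of the medians of all 12 libraries. Shifted values can thus leave the range that a covered percentage can take, and the call depends on this choice.

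**Figure D4:**
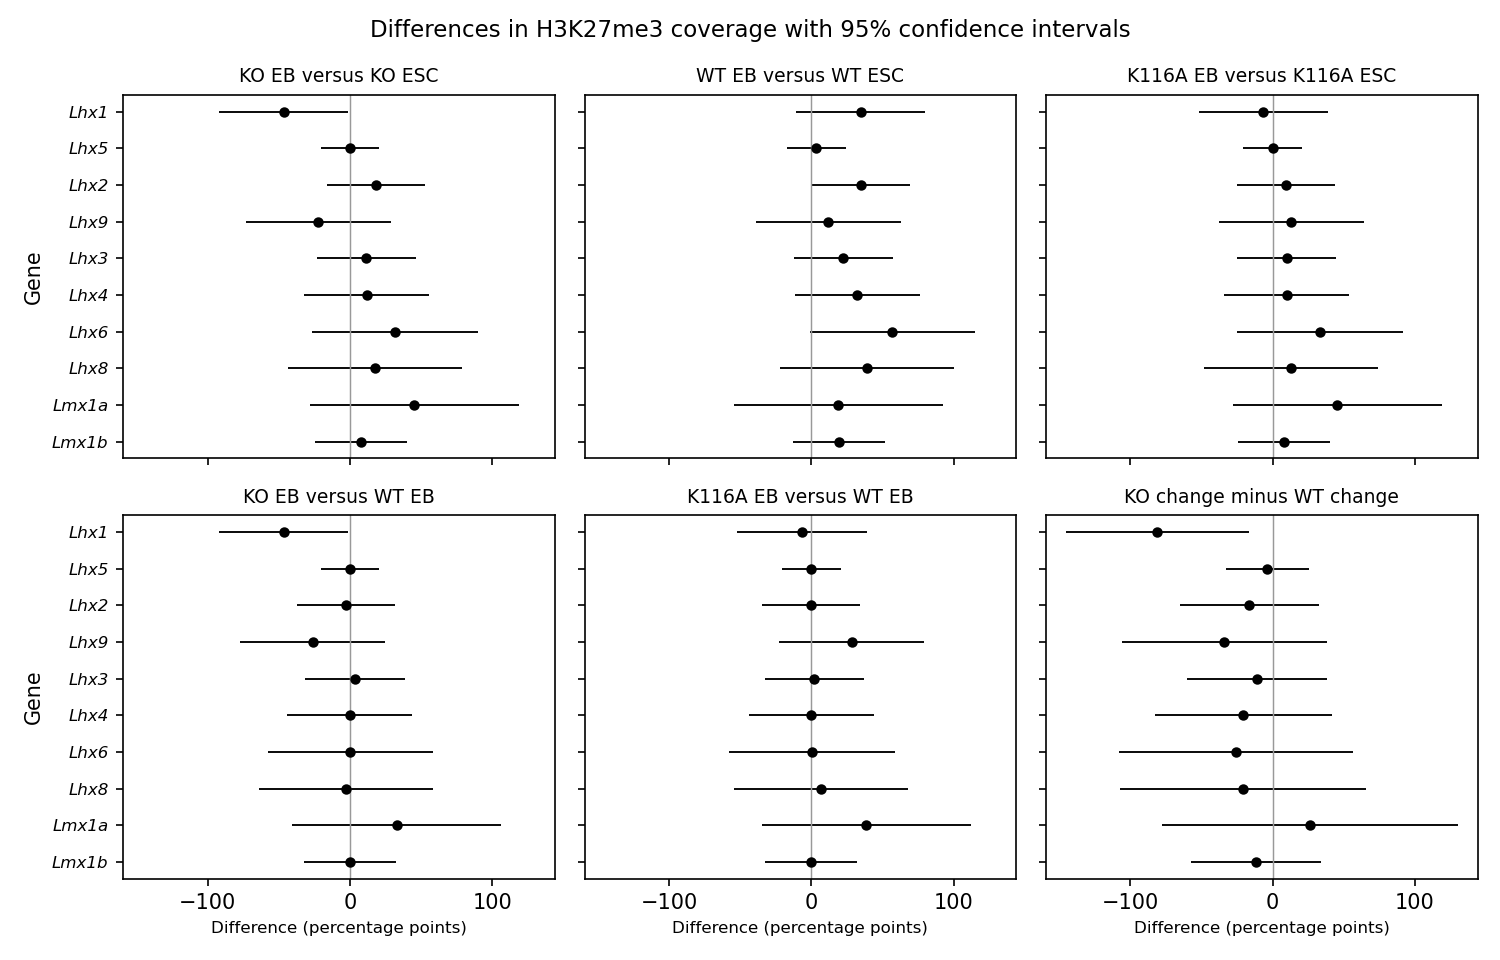
Differences in H3K27me3 coverage in percentage points for the 10 genes in 6 of the 9 comparisons, with 95% confidence intervals from limma (n = 2 libraries per group). The intervals of Lhx1 lie below 0 in the 3 comparisons with KO EB, but its adjusted p there was 0.136, 0.163 and 0.156.

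The score of the broad peaks was also used, since coverage is saturated at many of these genes. It was weighted by the bases of the window that each peak covered and averaged over the window. How the score was computed is not given in the sources used here, and it is not comparable between libraries with certainty. Both WT EB libraries had the fewest reads in the study's supplement, and the part of read depth in the order of the lines was not tested. For Lhx1 it was 36.3 and 18.3 in KO EB, 86.4 and 86.7 in WT EB, and 144 and 214 in K116A EB. For Lhx9 it was 2.06 and 8.16, 14.6 and 20.6, and 59.9 and 79.0 in the same order. Hence at both genes the lines followed the order KO, WT, K116A without overlap. Both KO EB libraries were below both WT EB libraries at these 2 of the 10 genes, compared to 4.16% of the 6747 genes tested. They were above both WT EB libraries at 7 genes, compared to 59.2% of all, and below both K116A EB libraries at 5, compared to 16.3%. Both K116A EB libraries were above both WT EB libraries at 9 of the 10 genes, all except Lmx1b, compared to 39.8% of all genes. For Lhx5 the weighted score was 205 and 254 in K116A EB and 177 and 150 in WT EB, although the window was covered fully in each. On the log2(score + 1) scale none of the 10 genes passed the test in any comparison.

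In the LIM pathway list, 5 of the 12 other genes had H3K27me3 in enough libraries to be tested, and 0 of them passed in any comparison. Isl1 resembled Lhx9 in the order of its mean coverage in EB. It was covered by 65.4 and 45.3% in KO EB, by 94.9 and 54.2% in WT EB and by 100 and 100% in K116A EB, so that KO and WT overlapped. Isl2 stayed between 43.8 and 49.4% in EB. Lmo1 was covered by 69.6 and 76.5% in KO EB, 27.2 and 45.4% in WT EB and 72.9 and 81.6% in K116A EB, an order like that of Lmx1a. Lmo4 and Ssbp2 were covered by at most 26.1 and 16.6%. Lmo2, Lmo3, Ldb1, Ldb2, Ssbp3, Ssbp4 and Rlim had no broad peak within 5 kb of the start in any library.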

How the data were processed

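The members, gene lists and tests were chosen with earlier results of these data known. Jarid2, Jarid2-K116me2 and H3K27me3 ChIP-seq peaks were analysed in 14 of 16 samples, as both inputs had no peak file. Reads were mapped to mm9 (Bowtie2 2.1.0) and peaks called with MACS 1.4.2 or MACS2 2.0.10, per the labels and the submitters' processing notes, for each sample separately. The deposited files give the position and a score of each peak. For both Jarid2 lists the authors' score is the MACS log10 p-value multiplied by minus 10. For the H3K27me3 broad peaks the deposited score is not defined, and fold enrichments and q-values were not used here. The planned measure, fold enrichment over the window, was therefore replaced by the covered share of the window, a choice made after the columns of the files were seen.

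Peaks were assigned to genes of the GENCODE annotation of NCBIM37, whose chromosome lengths were checked against the peaks. Coverage was fitted with limma 3.58.1 (R 4.3.3) as 6 group means with a trended prior, with no scaling between libraries, and p-values were adjusted by Benjamini-Hochberg over 6747 genes. The 2 replicates per group are independent biological samples per the study's methods, which name replicate 2 as the one of higher quality. Genes named were the 10 members, a list of LIM pathway genes, pluripotency genes, and genes sharing a member's peak. Scripts used Python 3.11.15, and interval functions and fits were tested on simulated data. Alternatives were other distances, score limits, windows, filters, scalings, a replicate block, and leaving out each library.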

Additional observations from a re-analysis of the deposited data

How the results depend on the processing

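The counts of Jarid2 and Jarid2-K116me2 peaks and of genes with a start peak kept within 1.5 times of their values under each other distance, score limit and overlap. For H3K27me3, the count of LIM homeobox genes that passed was 0 in all 9 comparisons and stayed 0 with the whole gene, the window of 2 kb, scores of 50 or more, the weighted score with a pseudocount of 1 or 0.5, and no filter on low coverage. Centring each library made it 3 for KO EB with KO ESC (Lhx1, Lhx9, Lmx1a), 2 for KO EB with WT EB (Lhx1, Lhx9) and 1 for the KO change minus the WT change (Lhx1, lower by 73.2 points, adjusted p = 0.00284 by limma, range over alternatives 0.00131 to 0.400). The cause was not tested. The library medians ran from 12.4% in WT ESC replicate 1 to 81.3% in K116A EB replicate 2, and each library was shifted by its median less their mean.

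With 1 library left out, the count ranged from 0 to 6 for WT EB with WT ESC, 0 to 3 for K116A ESC with WT ESC, 0 to 2 for KO ESC with WT ESC, 0 to 2 for the KO change minus the WT change, and 0 to 1 for the K116A change minus the WT change, KO EB with KO ESC and KO EB with WT EB. The other comparisons with K116A EB stayed at 0. The highest counts came without WT ESC replicate 2, which leaves only WT ESC replicate 1, the library with the fewest peaks, to stand for its group, with its spread assumed to be like that of the other groups. Without WT ESC replicate 1, Lhx1 passed with KO EB against KO ESC and against WT EB. Of the values of single genes, 1776 stayed on their side of the threshold, 24 newly passed and 0 turned direction as a call.

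Over all 6747 genes, the count that passed was 1636 for KO EB with KO ESC (548 with centring, 2225 with the replicate block), 1254 for KO EB with WT EB (225 to 1713 over all alternatives), 481 for the KO change minus the WT change (84 to 1299), 173 for K116A EB with K116A ESC (6 to 527), 92 for K116A EB with WT EB (4 to 343), 4 for the K116A change minus the WT change (0 to 169), 1 for K116A ESC with WT ESC (0 to 129), 0 for WT EB with WT ESC (0 to 212) and 0 for KO ESC with WT ESC (0 to 152).

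The labels give same-numbered replicates no shared origin. Their deviations from the group means correlated over genes with r from 0.632 to 0.699 in the 3 pairs of ESC groups and from -0.00941 to 0.227 in the other 12 pairs, and 7 of the 15 exceeded 0.1. The replicate block left the count of LIM homeobox genes that passed at 0 in every comparison, and the count over all genes was moved by over 1.5 times for K116A EB with K116A ESC (378 against 173), K116A EB with WT EB (165 against 92), K116A ESC with WT ESC (0 against 1). The alternative of a stricter q-value was not run, as the broad peaks were listed without one, and scores of 50 or more, the weighted score, the whole gene and a lowest score common to both Jarid2 lists were added after seeing the data. With 1 sample per antibody, no Jarid2 value has an error. The peaks were not scaled for read depth, which together with the ceiling of scores limits comparisons between libraries and among strong peaks.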
